A study of Mus musculus with 8 samples.

Results

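Glycolysis turns glucose into pyruvate and lactate, and the genes described here encode 1 glucose transporter and 9 enzymes of that route: Slc2a1, Hk1, Hk2, Pfkp, Pfkl, Pfkm, Aldoa, Eno1, Pkm and Ldha. They were chosen by name, as the entry of glucose, hexokinase, the phosphofructokinase isozymes and later steps. That choice was made with earlier results of these data known. Of the 10 genes, 9 were each read by 1 probe of the array, among 19505 genes with a named probe and 22206 probes in all. Eno1, which encodes alpha-enolase, had no named probe and was not analysed here.

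Values came from whole kidneys of NZBWF1 mice, a hybrid of New Zealand Black with New Zealand White mice that develops lupus-like nephritis with age. Both groups were of this strain, and the labels give no treatment or transgene for either. RNA of 4 mice at 8 weeks and of 4 mice at 28 weeks of age was hybridized to Clariom S Mouse arrays, and the mice are numbered 1 to 4 and 6 to 9 as in the labels. A level is a log2 value after robust multi-array averaging (RMA), a difference is the 28-week mean minus the 8-week mean on that scale, and an adjusted p comes from a limma fit, corrected by the Benjamini-Hochberg method across every probe. A gene is called where it is under 0.05. Levels of different probes are not set against each other.

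The kidney uses glucose unevenly. Proximal tubules mainly burn fatty acids, lactate and glutamine and make glucose by gluconeogenesis, whereas distal segments and the medulla break glucose down. Phosphofructokinase, the committed step of glycolysis, is a tetramer built from muscle (Pfkm), liver (Pfkl) and platelet (Pfkp) type subunits, and their mix sets how the enzyme answers to its regulators.

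The starts of 5 of these genes are shown, for the 3 phosphofructokinase isozymes, whose values moved unequally, and for Slc2a1 and Ldha, whose windows hold the DNA core bound by hypoxia-inducible factors. Each is the 150 bases before the transcription start, 5′ to 3′ on the gene's strand, from RefSeq on GRCm38.p6, with matches to the hypoxia response core ACGTG on either strand in capitals. The windows are chr13:6648772-6648921 (minus strand) for Pfkp, chr10:78009808-78009957 (minus strand) for Pfkl, chr15:98092439-98092588 (plus strand) for the first of 4 starts of Pfkm, chr4:119108595-119108744 (plus strand) for Slc2a1 and chr7:46845654-46845803 (plus strand) for the first of 2 starts of Ldha.
Pfkp: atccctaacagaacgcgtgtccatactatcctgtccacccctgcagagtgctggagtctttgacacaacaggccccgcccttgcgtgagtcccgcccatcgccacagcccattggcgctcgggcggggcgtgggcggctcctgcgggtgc
Pfkl: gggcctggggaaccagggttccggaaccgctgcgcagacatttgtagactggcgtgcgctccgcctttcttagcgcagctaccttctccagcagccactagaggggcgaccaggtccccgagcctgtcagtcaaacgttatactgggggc
Pfkm: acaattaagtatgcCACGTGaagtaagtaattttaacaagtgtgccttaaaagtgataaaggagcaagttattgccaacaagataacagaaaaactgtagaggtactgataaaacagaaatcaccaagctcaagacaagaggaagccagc
Slc2a1: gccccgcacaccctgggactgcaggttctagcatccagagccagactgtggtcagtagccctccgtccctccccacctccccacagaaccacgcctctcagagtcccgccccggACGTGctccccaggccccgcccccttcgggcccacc
Ldha: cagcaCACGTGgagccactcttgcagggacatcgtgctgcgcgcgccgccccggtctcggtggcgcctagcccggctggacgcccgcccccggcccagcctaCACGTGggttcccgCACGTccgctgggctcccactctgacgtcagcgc

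The search itself covered 300 bases per start, 250 before and 50 after it. The core lay in 9 of the 20 windows of the 10 genes, against 19.6% of all 32851 windows in the table, and in at least 1 window of 7 of the 10 genes, against 21.8% of genes in the table. The 10 genes had more windows per gene than the table, which holds 32851 windows for 27025 genes. This raises their share with at least 1 match. Windows of a gene can overlap, and the matches in 2 windows of Aldoa are 1 site. The E-box CACGTG, which contains the core on both strands and so counts as 2 matches, lay in 2 windows of the 10 genes, those shown for Pfkm and Ldha, against 7.15% of all windows. The windows of Pfkp, Pfkl and Eno1 held neither motif. Of the starts of Pfkm not shown, start 2 held 1 core and starts 3 and 4 none, and start 2 of Ldha held none. Windows of Hk1, Hk2, Aldoa and Pkm, not shown, held the core as well. A match is a description of the letters, and factor binding was not measured.

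Some arrays stood apart. Replicate 7 of the 28-week group correlated better with the 8-week arrays (mean r = 0.9897 across probes) than with its own group (0.9858), and 8-week replicate 1 correlated less with its group (0.9832) than the other 8-week arrays did with theirs (0.9883 to 0.9902). The share of all probes called was 0.968% (215 of 22206), with 0.446% higher and 0.522% lower at 28 weeks. It was 5.57% without 28-week replicate 7 and 0.113% to 0.423% without any other single array. The 4 arrays of one age lay wholly above the 4 of the other in 4.38% of probes with 28 weeks higher and in 4.33% with 28 weeks lower. Results are given below with and without replicates 1 and 7 where they move with them.

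At 28 weeks Pfkp rose 2.63-fold, and it was the 1 gene of the 9 that was called. None of the 9 was called lower. Over all probes, 0.446% were called higher and 0.522% lower. The difference was positive for 8 of the 9, all but Pfkm, where 48.7% of all probes had a positive difference, and the median difference of the 9 was 0.46, against -0.01 over all probes. Both ages were fully separated for Pfkp and Pkm, each higher at 28 weeks, as they were in 4.38% of all probes. In whole tissue, more RNA per cell and more cells of a type cannot be told apart.

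**Figure D1:**
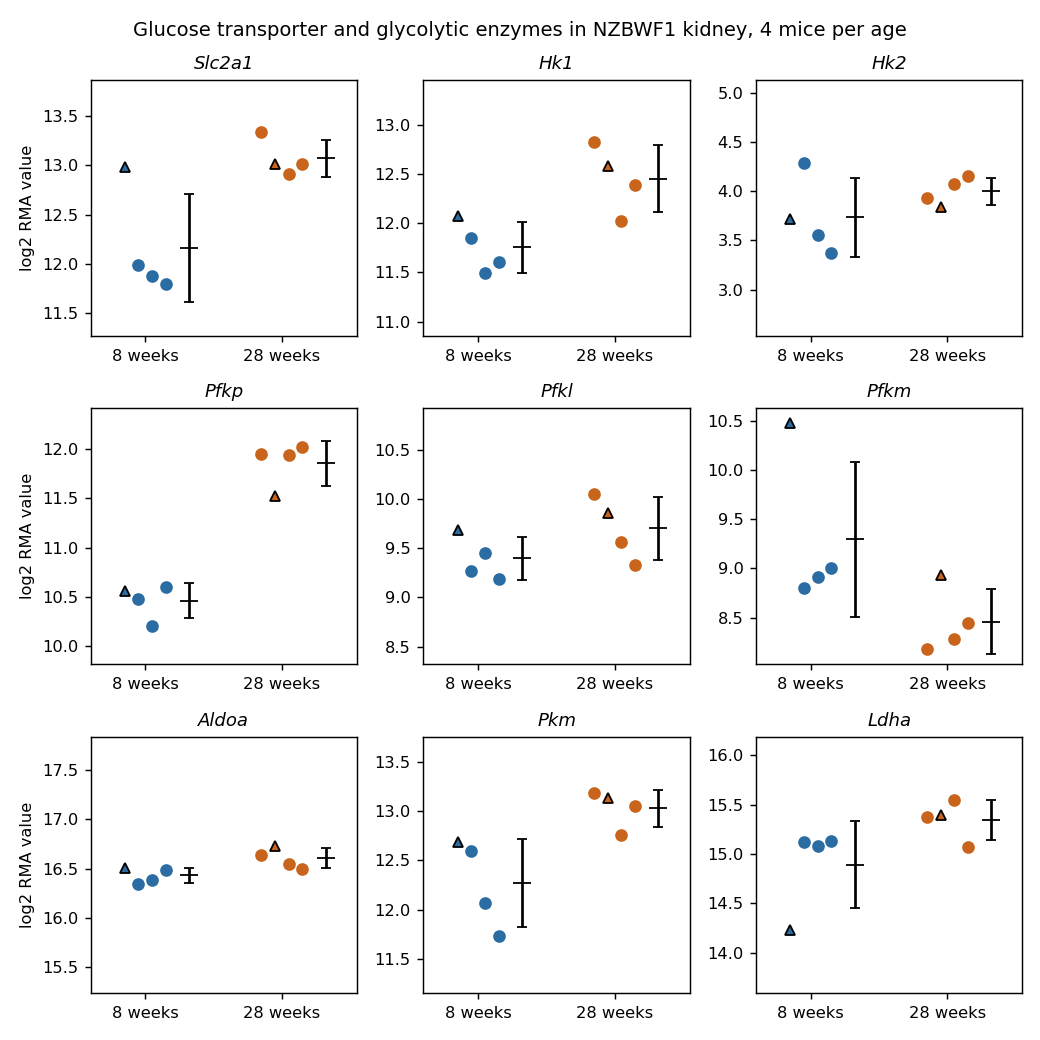
Log2 RMA values of the 9 measured genes in each mouse (blue 8 weeks, orange 28 weeks), with the mean ± SD of 4 mice beside the points; every vertical axis spans the same number of log2 units, and triangles mark 8-week replicate 1 and 28-week replicate 7. Pfkp lies between 10.21 and 10.60 at 8 weeks and between 11.52 and 12.02 at 28 weeks, and 8-week replicate 1 is the highest 8-week array for Slc2a1 and Pfkm and the lowest for Ldha.

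Glucose enters most cells through facilitative transporters, of which Slc2a1 encodes GLUT1, the transporter of basal uptake. Its level was 12.98, 11.99, 11.88 and 11.80 in 8-week replicates 1 to 4 and 13.34, 13.02, 12.91 and 13.02 in 28-week replicates 6 to 9. The other 8-week mice lay below every 28-week mouse, while 8-week replicate 1 lay inside the 28-week range. The difference was 0.91 (95% confidence interval 0.35 to 1.47, 1.88-fold, adjusted p = 0.117). Without 8-week replicate 1 it was 1.18 and was called (adjusted p = 0.0216), and without both that array and 28-week replicate 7 it was 1.20 (adjusted p = 0.00445).

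Hexokinase traps glucose in the cell as glucose 6-phosphate. Hk1, the housekeeping form, was 12.07, 11.85, 11.49 and 11.61 at 8 weeks and 12.82, 12.58, 12.02 and 12.39 at 28 weeks. One 28-week mouse, replicate 8, lay just below the highest 8-week mouse, so the groups overlapped by a single pair of values. The difference was 0.70 (0.25 to 1.14, 1.62-fold, adjusted p = 0.128). Hk2, the insulin- and hypoxia-responsive form, lay between 3.37 and 4.29 at 8 weeks and between 3.84 and 4.15 at 28 weeks. Its mean was below 4.33, the lower quartile of the mean levels of all probes, where RMA values carry little signal, and its difference was 0.27 (adjusted p = 0.615).

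The 3 phosphofructokinase isozymes did not move together. Pfkp was 10.56, 10.48, 10.21 and 10.60 in 8-week replicates 1 to 4 and 11.95, 11.52, 11.94 and 12.02 in 28-week replicates 6 to 9. All 28-week mice were higher than all 8-week mice, and 3 of the 4 lay within 0.1 log2 units of each other. Its mean rose from 10.46 ± 0.18 to 11.86 ± 0.23 (SD, n = 4 each), a difference of 1.40 ± 0.16 (standard error) with an interval of 1.04 to 1.75 and an adjusted p of 0.00782. A larger positive difference was found in 1.12% of all probes.

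Pfkl was 9.68, 9.27, 9.45 and 9.19 at 8 weeks and 10.05, 9.86, 9.56 and 9.33 at 28 weeks. Its groups overlapped, and the difference was 0.30 (-0.12 to 0.72, adjusted p = 0.522). Pfkm was 10.47, 8.80, 8.91 and 9.0 at 8 weeks and 8.18, 8.93, 8.28 and 8.45 at 28 weeks. The level in 8-week replicate 1 was 1.57 above the mean of the other 8-week mice, and 28-week replicate 7 fell within the 8-week range. The difference was -0.83 (-1.61 to -0.06, adjusted p = 0.294), and -0.44 without 8-week replicate 1 (adjusted p = 0.297). Without both that array and 28-week replicate 7 it was -0.60 (adjusted p = 0.0575).

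Whether one isozyme moved more than another was tested on the log2 value of one minus that of the other within each array, with a two-sided exact test that permuted ages over all 70 arrangements and can give no p below 0.0286. The test was run on 6 pairs, and adjusted p is over these 6. Pfkp minus Pfkl was 0.88, 1.21, 0.76 and 1.41 at 8 weeks and 1.90, 1.66, 2.38 and 2.69 at 28 weeks. The shift of 1.09 separated the ages (exact p = 0.0286, adjusted p = 0.0429). Pfkp minus Pfkm was 0.09, 1.68, 1.30 and 1.60 at 8 weeks and 3.77, 2.59, 3.66 and 3.57 at 28 weeks, a shift of 2.23 with full separation and the same exact p = 0.0286. Pfkl minus Pfkm ranged from -0.79 to 0.54 at 8 weeks and from 0.88 to 1.87 at 28 weeks and shifted by 1.14, again with exact p = 0.0286. Pfkp therefore gained on both other isozymes and Pfkl gained on Pfkm, by 2.13-fold, 4.69-fold and 2.20-fold.

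These pairs share arrays and genes, so they are not independent of each other. Without 8-week replicate 1 the shifts were 1.03, 1.87 and 0.84, each with an exact p of 0.0571 over 35 arrangements. All 3 calls were lost when any 8-week mouse or 28-week replicate 6 was left out, and were kept without replicate 7, 8 or 9. Without both that array and 28-week replicate 7 they were 1.20, 2.14 and 0.94, and 3 against 3 arrays cannot give an exact p below 0.1. Because probes differ in brightness, the values do not say which isozyme was the most abundant at either age. What was measured is a rise of Pfkp and a shift of the values toward it, without a called fall of Pfkm or Pfkl, so an isozyme switch in the sense of one form replacing another was not shown.

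**Figure D2:**
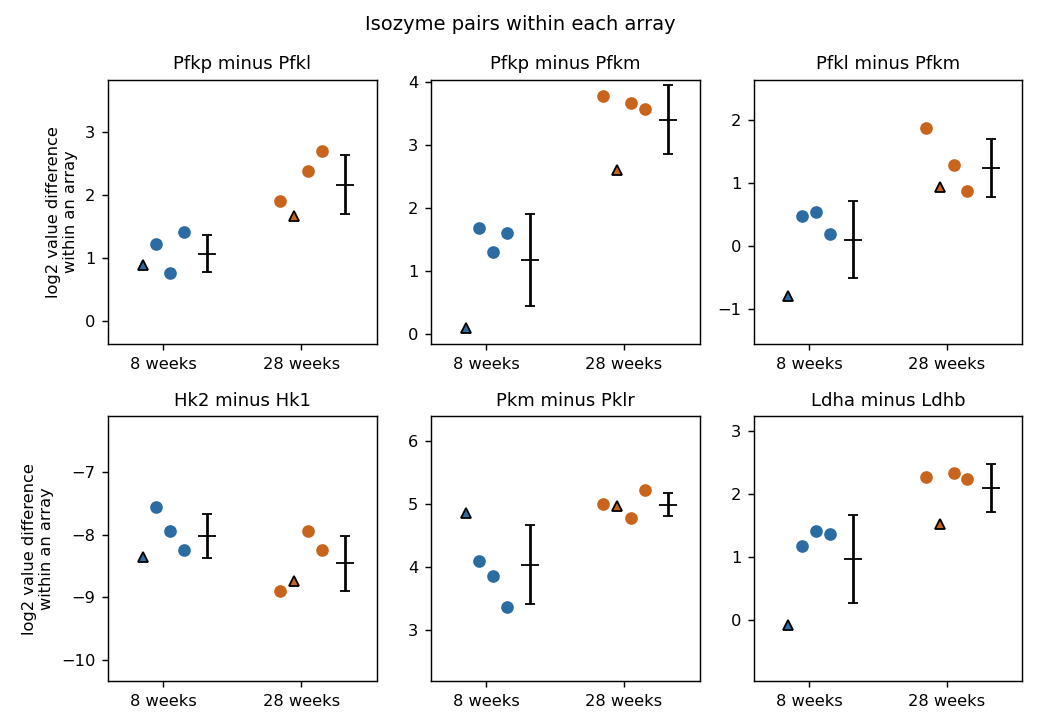
Log2 value of one isozyme minus that of another within each array, for 6 pairs, with the mean ± SD of 4 arrays; blue is 8 weeks, orange 28 weeks, triangles mark 8-week replicate 1 and 28-week replicate 7, and all vertical axes span the same range. The 3 phosphofructokinase pairs and Ldha minus Ldhb are fully separated between the ages, and Hk2 minus Hk1 and Pkm minus Pklr overlap.

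Of 5 listed regulators of phosphofructokinase 3 were measured, and none was called. Pfkfb3 and Pfkfb4 make and break fructose 2,6-bisphosphate, the strongest activator of the enzyme, and Tigar lowers it. Their differences were 0.07, -0.17 and 0.11 (adjusted p of 0.93, 0.80 and 0.798). The interval was -0.44 to 0.58 for Pfkfb3, -0.64 to 0.31 for Pfkfb4 and -0.19 to 0.40 for Tigar, so changes of 2-fold lay outside it for each. Pfkfb1 and Pfkfb2 were not analysed here.

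Aldolase splits fructose 1,6-bisphosphate. Aldoa, the form of muscle and most tissues, was 16.51, 16.35, 16.39 and 16.49 at 8 weeks and 16.64, 16.73, 16.55 and 16.50 at 28 weeks. The ages overlapped by 1 array, and the difference of 0.17 was not called (-0.11 to 0.45, adjusted p = 0.609). Pyruvate kinase makes pyruvate, and Pkm encodes its muscle forms. It was 12.69, 12.59, 12.07 and 11.73 at 8 weeks and 13.18, 13.13, 12.76 and 13.05 at 28 weeks. All 28-week mice were above all 8-week mice, but the 8-week mice spread widely, and the difference of 0.76 did not pass (0.27 to 1.25, 1.69-fold, adjusted p = 0.131). The array does not separate the M1 and M2 splice forms of Pkm here, since 1 probe stands for the gene. Pkm minus Pklr, the liver and red cell form, shifted by 0.95 (exact p = 0.0571, adjusted p = 0.0685).

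Lactate dehydrogenase interconverts pyruvate and lactate, and Ldha encodes the subunit that favours lactate. Ldha was 14.23, 15.12, 15.08 and 15.13 at 8 weeks and 15.37, 15.40, 15.55 and 15.07 at 28 weeks. Replicate 1 was 0.88 below the mean of the other 8-week mice, and 28-week replicate 9 lay inside the 8-week range. The difference was 0.46 (-0.03 to 0.95, adjusted p = 0.372), and 0.24 without 8-week replicate 1 (adjusted p = 0.475). Ldhb, the subunit of oxidative tissue, was 13.93 ± 0.28 at 8 weeks and 13.26 ± 0.44 at 28 weeks (difference -0.67, adjusted p = 0.196). Ldha minus Ldhb ran from -0.08 to 1.40 at 8 weeks and from 1.52 to 2.33 at 28 weeks, a shift of 1.12 (exact p = 0.0286, adjusted p = 0.0429), and of 0.78 without 8-week replicate 1 (exact p = 0.0571). This call too was lost in the 5 fits without an 8-week mouse or 28-week replicate 6.

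The other enzymes of the route gave no call. Of 15 listed isozymes and enzymes 12 were measured, 7 with a positive and 5 with a negative difference, and their median difference was 0.05. Aldoc, the brain-type aldolase, had the largest difference of the 12 (1.54, 0.69 to 2.39, adjusted p = 0.0916). It was 8.28, 8.55, 7.52 and 7.43 at 8 weeks and 10.08, 10.18, 8.61 and 9.07 at 28 weeks. The ages did not overlap, and replicate 7 was the highest of all. Eno3, the muscle enolase, was also separated, at 5.65 ± 0.18 and 6.08 ± 0.17 (adjusted p = 0.192). Of all probes, 4.38% were separated with 28 weeks higher. Pgam2, the muscle phosphoglycerate mutase, had a difference of -0.60 (adjusted p = 0.30).

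The other 8 gave small differences. They were 0.05 for Gapdh, 0.11 for Tpi1, -0.11 for Pgk1 and 0.05 for Pgam1, with intervals that stayed within -0.40 and 0.46. Hk3, Hkdc1, Eno2 and Pklr had differences of 0.10, 0.12, -0.03 and -0.19. The means of Hkdc1 and Eno2 lay below 4.33, where RMA values carry little signal. Among these 12 and the 9 genes above, Pfkp was the 1 call.

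**Figure D3:**
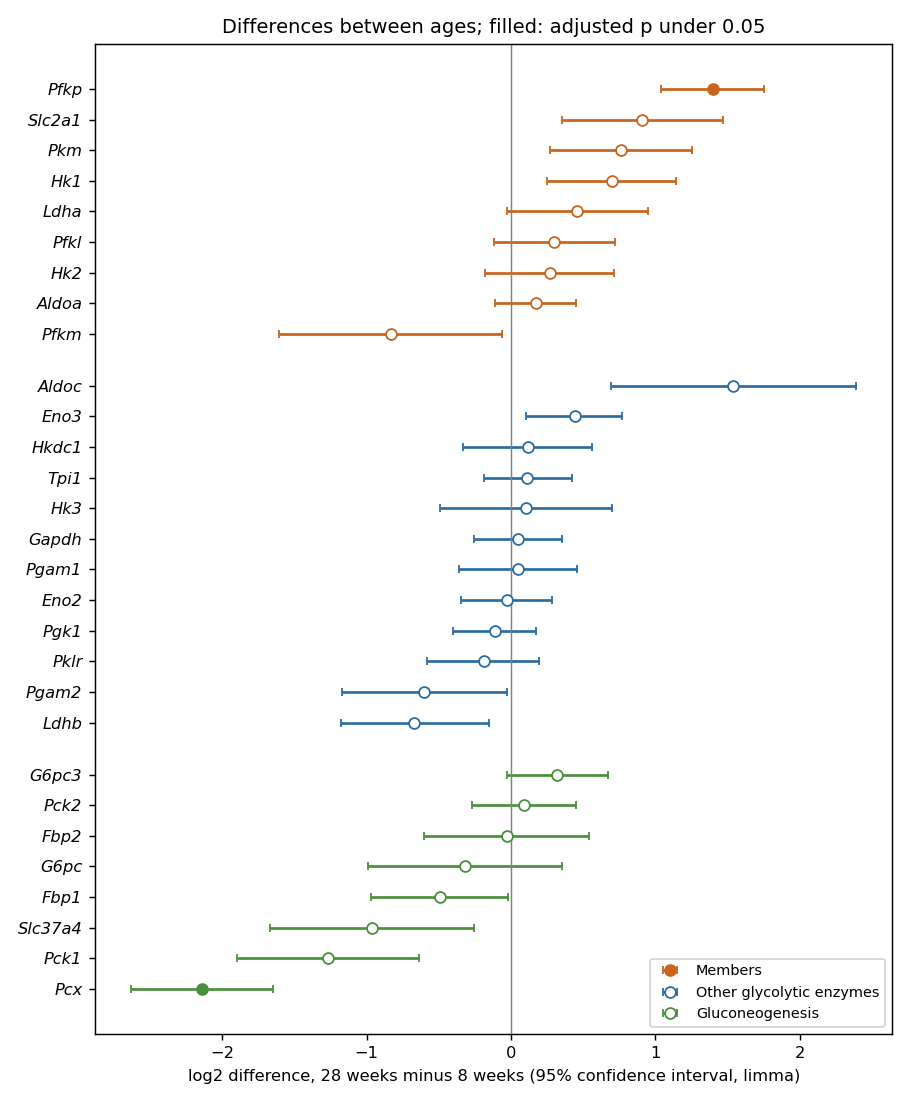
Log2 difference, 28 weeks minus 8 weeks, with its 95% confidence interval from limma for the 9 measured genes, 12 other glycolytic enzymes and 8 genes of gluconeogenesis; filled points have an adjusted p under 0.05. Pfkp at 1.40 and Pcx at -2.14 are the filled points.

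Gluconeogenesis runs the route backwards through its own enzymes at the irreversible steps. Of 8 measured genes, 1 was called lower (against 0.522% of all probes) and none higher, with 6 negative differences and a median of -0.41. The gene called was Pcx, pyruvate carboxylase, which turns pyruvate into oxaloacetate. Pcx was 12.87, 12.38, 12.64 and 12.57 at 8 weeks and 10.28, 11.06, 10.55 and 10.01 at 28 weeks. Every 28-week mouse lay below every 8-week mouse, and it fell 4.41-fold (difference -2.14, adjusted p = 0.00506).

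Pck1, which takes oxaloacetate to phosphoenolpyruvate, was separated in the same direction at 17.34 ± 0.16 and 16.07 ± 0.65 without passing (adjusted p = 0.0699). Slc37a4, the glucose 6-phosphate transporter, had a difference of -0.96 (adjusted p = 0.175), and Fbp1, which opposes phosphofructokinase in proximal tubules, one of -0.49 (adjusted p = 0.306). Without 28-week replicate 7, and with array weights, Pck1 and Slc37a4 were called lower too. Differences were -0.32 for G6pc, 0.32 for G6pc3, 0.09 for Pck2 and -0.03 for Fbp2. Proximal tubules are the site of renal gluconeogenesis, and all 10 markers of that segment had a negative difference (Slc22a6 called, median -0.32). The part of tubule composition in the gluconeogenesis values was not tested.

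The neighbouring routes gave few calls. None of 8 other facilitative glucose transporters passed, and the fructose transporter gene Slc2a5 had the smallest p among them (difference -0.95, adjusted p = 0.184). None of 13 genes of pyruvate entry into mitochondria passed. The ages did not overlap for Mpc1, a subunit of the mitochondrial pyruvate carrier (15.93 ± 0.13 and 15.43 ± 0.22, adjusted p = 0.144), or for Pdk3, an inhibitory kinase of pyruvate dehydrogenase (9.32 ± 0.21 and 8.89 ± 0.14, adjusted p = 0.193). In 4.33% of all probes the ages were separated with 28 weeks lower. None of 6 pentose phosphate and 3 fructose pathway genes passed. Without 28-week replicate 7, Ldhb, Slc2a5, the kinase gene Pdk2 and the fructose pathway gene Tkfc were called lower.

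Hypoxia-inducible factors drive many glycolytic genes, Slc2a1, Hk2, Pfkp and Ldha among them. A list of 18 other genes of these factors and their targets left these 4 out, so Pfkp is not counted in it. In it 1 was called lower (against 0.522% of all probes) and none higher. Differences were positive for 8 and negative for 10, with a median of -0.04. The gene called was Bnip3, a mitophagy receptor, which fell 1.96-fold (12.07 ± 0.29 and 11.10 ± 0.26, adjusted p = 0.0482). That call was held in 1 of the 8 fits that left out 1 array, the one without 28-week replicate 7 (adjusted p of 0.0198, and up to 0.144 in the others). Hif1a, the oxygen-regulated subunit, was 12.95 to 13.33 at 8 weeks and 13.53 to 14.11 at 28 weeks (difference 0.65, adjusted p = 0.0953), and it was called higher without replicate 7 (adjusted p = 0.0288). Ndrg1 had a difference of 0.58 with full separation (adjusted p = 0.0723, and called in 3 of 7 alternative fits), and Vegfa one of -0.68 (adjusted p = 0.128).

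None of 11 measured regulators of glycolytic genes passed. Myc, a transcription factor that raises glycolytic enzymes, was 6.49 ± 0.52 at 8 weeks and 7.71, 6.62, 8.54 and 8.17 in 28-week replicates 6 to 9. Replicate 7 lay within the 8-week range, and the difference was 1.27 (adjusted p = 0.152), called without that array (adjusted p = 0.0119). The kinase gene Akt1 had a difference of 0.39 (adjusted p = 0.388) and Txnip, an inhibitor of glucose uptake, one of -0.33 (adjusted p = 0.415).

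Markers of other cells were read as well. The summed level of 11 macrophage and monocyte markers, as log2, was 10.76 to 11.61 at 8 weeks and 14.84, 11.65, 13.84 and 13.61 in 28-week replicates 6 to 9. Replicate 7 was therefore 0.04 above the highest 8-week mouse in this sum, while the others were at 13.61 or more. The mean log2 level of the 11 markers was 6.53 in replicate 7, within the 6.28 to 6.80 of the 8-week mice. It was 9.30 to 10.25 in the other 28-week mice. All 11 had a positive difference and none was called. In the same mouse Pfkp was 1.06 above the 8-week mean, against 1.48 to 1.56 in the other 28-week mice. Whether the macrophage markers and Pfkp are related was not tested.

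In replicate 7 the levels of 7 of the 9 genes, all but Hk2 and Pfkm, lay above every 8-week mouse, as did 18.1% of all probes in that array. Its deviations from the 8-week mean were 0.86 for Slc2a1, 0.82 for Hk1, 0.86 for Pkm and 0.51 for Ldha, each inside the range of the other 28-week mice, and 0.30 for Aldoa, above the 0.07 to 0.21 of the others. The deviation of Pcx was -1.55, against -2.06 to -2.61 in the others. Summed markers of proliferating cells were 2.73 to 3.47 above the 8-week mean in the other 28-week mice and 0.33 in replicate 7. Summed leukocyte and lymphocyte markers were 1.14 to 4.48 above it in the others and 0.36 in replicate 7. In replicates 6 and 8 that sum mostly follows Jchain, at 12.79 and 10.47 there, 7.52 in replicate 7 and 5.83 in replicate 9. Ptprc was 6.79 in replicate 7, below the 7.05 to 7.45 of the 8-week mice, and 8.91 to 10.34 in the others. Summed markers of neutrophils, skeletal muscle, fat and red cells stayed between -0.47 and 0.45 of the 8-week mean in all 28-week mice, although the neutrophil marker Csf3r had a difference of 1.30 with full separation (not called). These sums do not show that such cells were unchanged. The 4 fat markers, S100a8, Retnlg, Acta1, Myh4 and Tnnt3 had means below 4.33, where RMA values carry little signal. For red cells 2 of 7 listed genes were measured, none of them a haemoglobin gene, and Slc4a1 is also listed for the collecting duct.

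**Figure D4:**
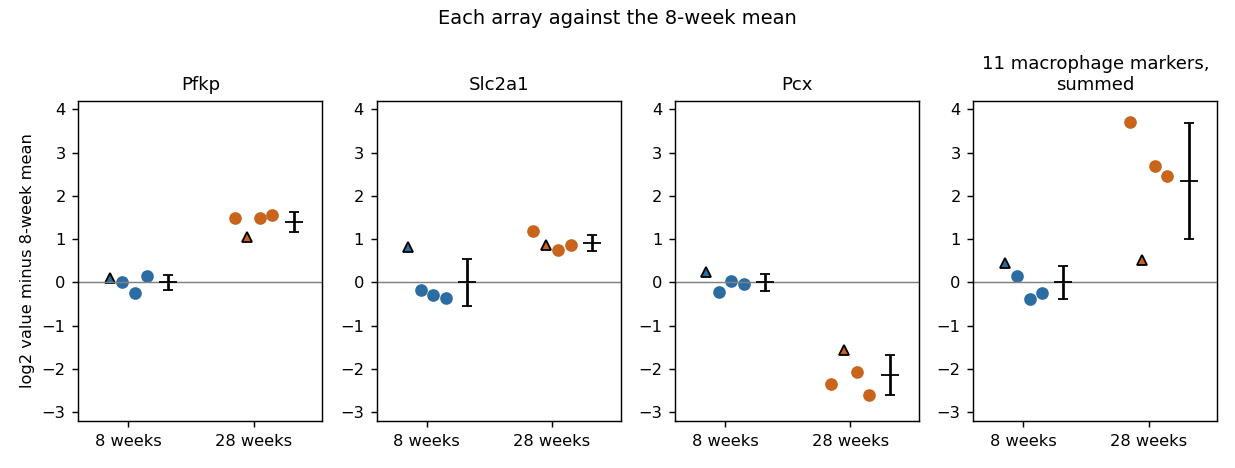
Log2 value of each array minus the 8-week mean for Pfkp, Slc2a1, Pcx and the summed level of 11 macrophage and monocyte markers, with the mean ± SD of 4 arrays; blue is 8 weeks, orange 28 weeks, and triangles mark 8-week replicate 1 and 28-week replicate 7. Replicate 7 is at 1.06 for Pfkp, 0.86 for Slc2a1 and -1.55 for Pcx, and at 0.51 for the macrophage markers, where the other 28-week arrays start at 2.47.

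Nephron markers differed by segment. All 5 markers of the thick ascending limb, a glycolytic and oxidative salt-transporting segment, had a positive difference (median 0.48, none called), and their summed level was 18.77 to 18.99 at 8 weeks and 19.17 to 19.46 at 28 weeks. Replicate 7 was 0.40 above the 8-week mean there, within the 0.27 to 0.56 of the other 28-week mice. All 5 markers of the distal convoluted tubule had a negative difference (Pvalb called, median -1.84), and 6 of 9 of the collecting duct did (none called, median -0.47). Summed injured tubule markers ran from 14.20 to 15.72 at 8 weeks and from 13.78 to 17.70 at 28 weeks. Of the 7, 2 were called higher, Vcam1 and Cdkn1a, against 0.446% of all probes. That sum mostly follows Havcr1, which was 13.62 in replicate 7, whereas the mean log2 level of the 7 markers was 7.69 there against 7.0 to 7.43 at 8 weeks. Summed fibroblast and smooth muscle markers were 11.88 to 14.00 at 8 weeks, highest in replicate 1, and 12.08 to 14.33 at 28 weeks. The part of these markers in the values of the glycolytic genes was not tested.

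Pfkp was compared with all 19571 other named probes over the 8 arrays by Pearson's r, which here describes mainly the difference between the 2 ages that these arrays share. The values most like it were those of Cdkn1a, the p21 cell cycle inhibitor (r = 0.996), the amino acid transporter gene Slc38a2 (0.989), Nol11 (0.988), the actin-capping gene Capza1 (0.985), the tubulin gene Tubb4b and the GTPase gene Rac1 (both 0.979), and Tspan33 and Mal2 (both 0.977). The values most opposed were those of the clock gene Ciart (r = -0.982), Pcx (-0.977) and the uridine phosphorylase gene Upp2 (-0.976). Among the other measured members r ranged from -0.614 for Pfkm to 0.799 for Slc2a1. Cdkn1a and Pcx both placed replicate 7 between the 8-week mice and the other 28-week mice, as Pfkp did, at 9.78 for Cdkn1a against 10.96 to 11.25 in the others. Both were picked for this comparison by their r with Pfkp over these same arrays, so this placement largely follows from the choice. Cdkn1a is also on the injured tubule list and Pcx on the gluconeogenesis list.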

How the data were processed

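Values are the authors' deposited log2 expression values of 22206 probes on 8 arrays; the submitters' processing notes name RMA, with a version and settings that were not given in the sources used here. Base 2 was assumed for the logarithm from RMA's convention, so folds rest on that; RMA compresses folds of dim probes and gives no detection call. The platform annotation gave 1 symbol to 19572 probes. Groups came from sample titles. Separate animals rest on the series' design text, and the labels give no batch.

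Each probe was tested with lmFit and eBayes in limma 3.58.1 (R 4.3.3), with all 8 arrays and no covariate, after a check on simulated data. Isozyme pairs were tested by exact permutation (Python 3.11.15). Pathway and marker lists were described by counts and medians. Genes named were all members, all measured genes of the glycolysis, phosphofructokinase regulator and gluconeogenesis lists, up to 4 per other pathway list by smallest p, up to 3 per marker list by mean level, and those most and least like Pfkp. Pvalb, Slc22a6 and Vcam1 were added where they were the markers called, after their values were seen. Dim markers outside that rule, such as S100a8, Retnlg, Acta1 and Myh4, were named for their low levels. The members and lists were chosen with earlier results of these data known. Alternatives were quantile, median and ribosomal centring (51 genes), a filter on the dimmest 50% of probes, trend and robust eBayes, array weights, and leaving out arrays. No protein sequences were used here. The number of arrays limits the precision.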

Additional observations from a re-analysis of the deposited data

Results flagged for a closer look

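In groups of 4 mice, a value was singled out when its gap to the nearest other mouse, as a share of the group's whole range, exceeded Dixon's critical value. Of 76 groups of values examined 14 were singled out, where chance gives about 5%, and 9 of the 14 were 8-week replicate 1. In that mouse Pfkm was 10.47 (8.80 to 9.0 in the others), Slc2a1 12.98 (11.80 to 11.99), Pfkfb4 6.86 (5.94 to 5.97), Ldha 14.23 (15.08 to 15.13), Gapdh 17.78 (18.10 to 18.13), Slc37a4 14.48 (15.33 to 15.34), Fbp1 16.43 (16.94 to 17.02), G6pc3 10.09 (10.35 to 10.40) and Ldha minus Ldhb -0.08 (1.16 to 1.40). So Slc2a1 and Pfkm were high and Ldha and Gapdh low in the same kidney. Summed collecting duct markers were 15.26 there (14.26 to 14.40 in the other 8-week mice). Summed fibroblast and smooth muscle markers were 14.00 (11.88 to 12.73), and injured tubule markers were lower, at 14.20 (14.81 to 15.72). The part of these markers in the values of this mouse was not tested.

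In 28-week replicate 7 the lowest values of the group were 11.52 for Pfkp, 2.59 for Pfkp minus Pfkm and 1.52 for Ldha minus Ldhb, all still above every 8-week mouse. The other 2 were Pgam1 at 11.74 in 28-week replicate 8 (12.06 to 12.12 in the others) and Pck1 at 17.11 in 8-week replicate 2 (17.42 to 17.43 in the others). These values are not independent, since several come from the same array.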

How the results depend on the processing

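No paired analysis was made, since the ages came from separate mice and the labels give no pairs. Pfkp was called in all 15 other fits (7 alternatives, adjusted p of 0.00115 to 0.00913, and 8 fits without 1 array, 0.000644 to 0.0435), and Pcx in the same 15 (up to 0.0331). Over the 9 genes and all alternatives, 131 of 134 values kept their direction and their side of the threshold, and the other 3 were calls of Slc2a1, without 8-week replicate 1, without both that array and 28-week replicate 7, and with array weights (adjusted p = 0.0221). The count of members called was accordingly 2 with array weights and 2 without both arrays, and 1 to 2 without 1 array. Calls over all probes numbered 399 without the dimmest 50% of probes, 399 with trend and robust options, 873 with array weights and 1384 without both arrays. Without 8-week replicates 1 to 4 they numbered 94, 36, 30 and 26, and without 28-week replicates 6 to 9 they numbered 56, 1237, 28 and 25, a range of 25 to 1237. In the pathway lists together 2 genes were called, 10 without both arrays, 10 without 28-week replicate 7 and 1 without any other array. Without 1 array, the shift was 0.91 to 1.26 for Pfkp minus Pfkl, 1.87 to 2.50 for Pfkp minus Pfkm, 0.84 to 1.28 for Pfkl minus Pfkm and 0.78 to 1.31 for Ldha minus Ldhb. These 4 calls held after quantile normalization and without 28-week replicate 7, 8 or 9, and were lost in the other 5 fits without 1 array. All 8 fits without 1 array have 35 arrangements and allow an exact p of 0.0286. Without 8-week replicate 4 the 3 phosphofructokinase pairs kept that exact p, and their adjusted p over the 6 pairs was 0.0571. Without both arrays the shifts were 1.20, 2.14, 0.94 and 0.97, where 20 arrangements allow no call. Pck1 was called lower without the dimmest probes (adjusted p = 0.045) and with array weights (0.0249), as was Slc37a4 with array weights (0.0417). Ndrg1 was called higher without the dimmest probes (0.0389), with trend and robust options (0.0136) and with array weights (0.0339). Bnip3 lost its call with median centring (0.0502). Hk2 had no value under the filter on dim probes, and no gene of the 9 had a second probe to average.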
